A study of Mus musculus with 12 samples.

Results

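The AP-1, Myc and immediate early mRNAs were 10 genes chosen by symbol from the count table, out of 55376 genes listed, 22519 with a count and 12224 tested. They were Fos, Fosl1, Jun, Junb, Jund, Myc, Egr1, Ier2, Ier3 and Atf3, and all 10 passed the filter on low counts. The 12 libraries were made from 4T1, a murine mammary carcinoma line, carrying by stable transfection either an empty vector (mock) or METTL7A1, a putative methyltransferase. The METTL7A1 insert was a full-length, FLAG-tagged Mettl7a1 cDNA in a CMV-promoter vector, and the cells were kept under G418. Whether each line was a clone or a pool of transfectants was not stated. From each genotype, sub-polysomal RNA (gradient fractions 3 to 7, with free subunits and monosomes) and polysomal RNA (fractions 8 to 11) were sequenced in triplicate, giving 4 groups of 3. Replicates A to C were mock and D to F were METTL7A1, and no label ties a letter to a separate culture. The study describes its gradients as run on biological triplicates. Where letters are not separate cultures, p-values measure only the spread between these libraries, which may be technical. All 4 groups received 0.1 mg/ml cycloheximide for 5 min before lysis.

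Immediate early genes are transcribed within minutes of a growth factor or stress signal, without new protein synthesis, and their mRNAs are short-lived. AP-1 is a dimer of a Jun protein (Jun, Junb, Jund) with a Fos protein (Fos, Fosl1) or another Jun or ATF protein, and it drives growth, invasion and matrix protease genes in carcinoma cells. Many of these mRNAs carry AU-rich elements in the 3′ untranslated region (UTR), copies of AUUUA that recruit proteins such as ZFP36 and speed deadenylation. Cycloheximide blocks elongation and is known to stabilise and superinduce such mRNAs. Every library had been treated with it, so its part in the levels was not tested.

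Among the 10, 4 genes (Jun, Junb, Jund and Ier2) had a single exon in the coding transcript used, against 1.99% of the 10842 genes tested with a coding transcript. The GC content of their mRNAs ran from 51.9% in Fos to 67.1% in Jund, with a median of 56.4% against 50.4% over those genes. The 3′ UTR held the letters ATTTA in 9 of 10, all but Ier2, against 68.1% of the 10796 genes with a 3′ UTR. The median was 2.89 copies per kb of 3′ UTR against 1.31. The longer core TATTTAT, which contains ATTTA, stood in 6 of 10 (Fos, Fosl1, Jun, Jund, Ier3 and Atf3) against 29.3%. Ier3 held 4 copies of TATTTAT, a number reached by 1.32% of genes. Only Fos held the nonamer TTATTTATT, present in 7.77% of genes. Only the sense strand was searched, overlapping copies were counted, and a match is a description of letters and not a tested site.

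Stretches of 30 bases with the most ATTTA copies are shown for 5 members. These genes include 3 mRNAs that rose in both pools of METTL7A1 cells (Jun, Ier3 and Atf3). They also include the one with the nonamer (Fos) and the most sub-polysomal AP-1 subunit (Jund). Egr1 and Ier2 rose in both pools as well and are not shown. Egr1 held 2 copies of ATTTA and Ier2 held 0. Each is the sense strand, 5′ to 3′, of the 3′ UTR in GENCODE M21 on GRCm38, with T for U. ATTTA is in capitals.
Fos, chr12:85477092-85477121, plus strand: cgtttttattgtgttttcaATTTATTTAtt
Jun, chr4:95049204-95049233, minus strand: ATTTAtaatcataggaaagATTTAgtaatt
Jund, chr8:70700353-70700382, plus strand: agtgtccgattccgccctATTTAtgtttct
Ier3, chr17:35822481-35822510, plus strand: tgtctaattaatATTTAtgtATTTAtgtat
Atf3, chr1:191170349-191170378, minus strand: tttctgtaagagaaaatattacttATTTAt
The Fos stretch holds 2 overlapping copies, the Jun stretch 2 separate ones and the Ier3 stretch 2 separate ones that both lie inside TATTTAT. Jund and Atf3 show 1 copy each.

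Library totals lay between 1817520 and 6966156 counts, and the shallowest was mock sub-polysomal replicate A. Values are counts scaled to library size (CPM) and by TMM factors, which set the bulk of genes equal between libraries. They therefore give a level relative to the other RNA of the same pool, and not the share of an mRNA's molecules on polysomes. In bulk samples, fewer cells with an mRNA and less of it per cell cannot be told apart. Mettl7a1 had 1.26 to 3.28 CPM in the 6 mock libraries and 236 to 395 CPM in the 6 METTL7A1 libraries, as labelled. The carcinoma markers Krt8, Krt18, Epcam and Cdh1 were present throughout, with 1841 to 4076 CPM summed over their list of 6, and of the basal keratins Krt5 was at 0 and Krt14 read 18.1 to 40.0 CPM. Among leukocyte markers, Cd3e and Adgre1 were at 0 and Ptprc reached 1 count. Cd68 read 4.64 to 11.3 CPM in mock and 11.0 to 22.3 CPM in METTL7A1 libraries, and its part in the differences between genotypes was not tested. Of 4 fibroblast markers Pdgfra reached 5.87 CPM and Dcn 1 count, with Col3a1 and Lum at 0. Of 4 endothelial markers Cdh5 reached 4 counts, with Kdr at 0.

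Ier3 was by far the most abundant member. Per kb of the exon length listed with the counts, it stood at 1495 ± 132 CPM per kb (SD, n = 3) in mock sub-polysomal RNA, 841 ± 133 in mock polysomal RNA, 3349 ± 650 in METTL7A1 sub-polysomal RNA and 1497 ± 49.9 in METTL7A1 polysomal RNA. Fos was the scarcest in all 4 groups, between 2.52 ± 0.765 and 5.50 ± 0.160 CPM per kb. It rested on 8 to 72 counts per library. The order between these ends differed by pool. In both sub-polysomal groups Ier2 and Jund followed Ier3, and their ranges overlapped each other but not that of Fosl1, which came next. In both polysomal groups Fosl1 and Myc took those places, and Ier2 and Jund came after Junb. The range of Ier2 overlapped that of Junb in METTL7A1 cells but not in mock cells. Jun, Egr1 and Atf3 were low in every group, from 7.26 ± 2.56 CPM per kb for Egr1 in mock polysomal RNA to 33.7 ± 2.42 for Jun in METTL7A1 polysomal RNA.

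**Figure D1:**
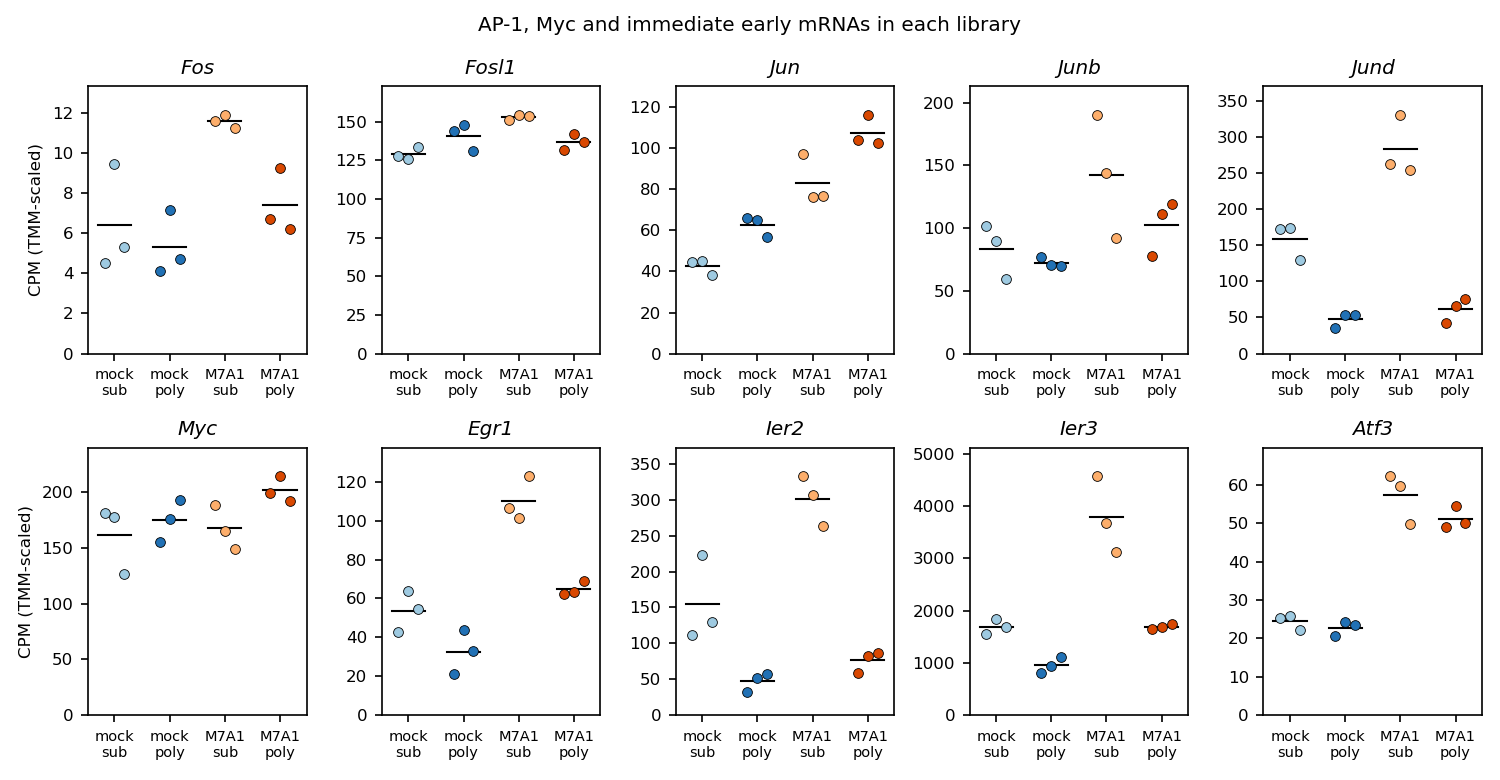
TMM-scaled CPM of the 10 mRNAs in each of the 12 libraries (points), by group on the horizontal axis (mock or METTL7A1, written M7A1, sub-polysomal or polysomal), with the group mean as a line and a vertical axis from 0 in each panel. Jund and Ier2 are low in both polysomal groups, with 35.1 to 75.6 and 32.4 to 86.9 CPM, and Atf3 separates the genotypes in both pools, with at most 25.8 CPM in mock and at least 49.2 CPM in METTL7A1 libraries.

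The comparison of the pools asks which of these mRNAs were enriched on polysomes relative to other mRNAs. Jund and Ier2 were depleted from polysomal RNA in both genotypes, Ier3 and Egr1 were lower there by a smaller margin, and Jun was higher. Fosl1, Myc and Atf3 did not pass the test in either genotype. A strict call needed an adjusted p below 0.01 and a log2 change beyond 1.5 in edgeR's quasi-likelihood test. In mock cells 2 of 10 members (Jund and Ier2) were called lower, against 6.86% of all genes tested. In METTL7A1 cells the same 2 members were called lower, against 10.3%. At an adjusted p below 0.05 with no limit on the fold, mock cells had 1 member higher (background 23.3%) and 4 lower (background 23.7%). METTL7A1 cells had 1 higher (background 30.0%) and 5 lower (background 29.3%). In a set of 10 genes these counts lie within a few genes of the background, and no difference from it was tested. With the GC offsets described below, METTL7A1 cells had 2 higher and 4 lower, against 3215 and 3000 of 10842 genes. Mock cells then had 1 higher and 4 lower, against 2676 and 2676.

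Jund encodes the AP-1 subunit that is also present in resting cells. Mock sub-polysomal libraries had 173, 174 and 129 CPM in replicates A, B and C, and mock polysomal libraries had 35.1, 53.9 and 53.6. METTL7A1 sub-polysomal libraries had 262, 331 and 255 CPM in replicates D, E and F, and METTL7A1 polysomal libraries had 42.7, 65.2 and 75.6. The pools did not overlap in either genotype. The log2 change was -1.73 (SE 0.209, adjusted p 4.19e-06) in mock and -2.21 (SE 0.208, adjusted p 1.29e-07) in METTL7A1 cells. Jund was the most GC-rich member. An alternative chosen after seeing the data, GC offsets, takes out of each library its dependence on mRNA GC content. Its change was then -0.98 in mock and -0.82 in METTL7A1 cells, still past an adjusted p of 0.05 but inside the fold limit.

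Ier2, an immediate early nuclear protein gene with a coding sequence of 221 codons, had 112, 223 and 130 CPM in mock sub-polysomal replicates A, B and C and 32.4, 51.7 and 57.1 in polysomal RNA. METTL7A1 cells had 333, 307 and 264 CPM in sub-polysomal replicates D, E and F and 59.0, 82.4 and 86.9 in polysomal RNA. Replicate B stood above the other mock sub-polysomal libraries, and the pools did not overlap. The log2 change was -1.72 (SE 0.239, adjusted p 1.59e-05) in mock and -1.98 (SE 0.236, adjusted p 1.37e-06) in METTL7A1 cells. It was -1.46 and -1.26 with the GC offsets, so no member was strictly called in either genotype under that alternative. Without mock replicate B, 1 of the 2 mock calls was left, as the log2 change of Ier2 was then -1.44.

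The values of Jund and Ier2 can be read beside genes that share some of their features. Of the classes below, the short coding sequence holds for Ier2 but not Jund (1026 bases against 666). TATTTAT holds for Jund but not Ier2. The 302 genes with a GC content at least that of Ier2 had a median log2 change between pools of -0.44 in mock and -0.99 in METTL7A1 cells. The 1806 genes with a coding sequence no longer than that of Ier2 had medians of -0.74 and -0.96, and 216 single-exon genes had medians of -0.25 and -0.47. Over all genes tested the medians were 0.05 and 0.06. The 3163 genes with TATTTAT in the 3′ UTR had medians of 0.23 and 0.34. The part of any of these features in the members' changes was not tested beyond the GC offsets.

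Ier3, an early response gene linked to survival and ERK signalling, has the shortest coding sequence of the 10, at 160 codons. In mock cells it had 1542, 1840 and 1692 CPM in sub-polysomal replicates A, B and C and 812, 931 and 1110 in polysomal RNA. In METTL7A1 cells it had 4573, 3676 and 3115 CPM in sub-polysomal replicates D, E and F and 1639, 1689 and 1752 in polysomal RNA. The pools were apart in both genotypes. The log2 change was -0.83 (SE 0.179, adjusted p 0.000919) in mock and -1.16 (SE 0.179, adjusted p 2.35e-05) in METTL7A1 cells, and it was -0.87 and -1.03 with the GC offsets.

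Egr1, a zinc finger transcription factor of the serum response, had 42.9, 63.6 and 54.7 CPM in mock sub-polysomal replicates A, B and C and 20.9, 43.8 and 32.9 in polysomal RNA. In METTL7A1 cells sub-polysomal replicates D, E and F had 106, 101 and 123 CPM and the polysomal libraries 62.5, 63.3 and 69.1. The mock pools overlapped, as replicate B of the polysomal pool lay above replicate A of the sub-polysomal pool, and the METTL7A1 pools did not. The log2 change was -0.74 (SE 0.206, adjusted p 0.00661) in mock and -0.76 (SE 0.194, adjusted p 0.00243) in METTL7A1 cells. The second call was lost with the GC offsets, at -0.42 and an adjusted p of 0.057.

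Jun, the founding AP-1 subunit, went the other way. Mock sub-polysomal replicates A, B and C had 44.6, 45.3 and 38.1 CPM and polysomal libraries 66.1, 64.9 and 57.0. METTL7A1 sub-polysomal replicates D, E and F had 97.2, 76.2 and 76.8 CPM and polysomal libraries 104, 116 and 102. Every polysomal library was above every sub-polysomal one of its genotype. Jun was higher in polysomal RNA by a log2 change of 0.56 in mock (SE 0.145, adjusted p 0.00381) and 0.37 in METTL7A1 cells (SE 0.137, adjusted p 0.0253). The METTL7A1 call ended with Actb scaling (0.12, adjusted p 0.531) and without replicate E (0.25, adjusted p 0.28) or F (0.35, adjusted p 0.11). Jund, a single-exon AP-1 gene like Jun and of similar coding length (341 codons against 334), had the opposite sign. The GC content of their mRNAs differed, at 67.1% in Jund and 55.5% in Jun. Its part in the opposite signs was not tested beyond the GC offsets.

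Of the remaining members, Fos passed an adjusted p of 0.05 in METTL7A1 cells, at -0.63 (SE 0.249, adjusted p 0.0352), and had -0.30 (SE 0.291, adjusted p 0.418) in mock cells. The difference between genotypes did not pass (adjusted p 0.713). The METTL7A1 call ended without replicate D, E or F, with adjusted p from 0.0532 to 0.156. Fosl1, the Fos-family subunit abundant in invasive carcinoma cells, had log2 changes of 0.13 and -0.16, and Atf3, a stress-induced bZIP factor, had -0.09 and -0.16. Myc, the growth regulator, had 0.12 and 0.27. Junb, a Jun subunit often opposed to Jun in growth, had -0.19 in mock and -0.46 in METTL7A1 cells (adjusted p 0.528 and 0.0795). Junb was instead higher in polysomal RNA of METTL7A1 cells with the GC offsets, at 0.46 and an adjusted p of 0.0374, so its direction depends on that choice. Of the exon bases of Fosl1, 62.4% lie opposite exons of Ccdc85b on the other strand, and of those of Jund 52.6% lie opposite Gm11175. The strand setting of the counting was not stated, so the levels of Fosl1 and Jund are uncertain to that extent. Ccdc85b had 73 to 443 counts per library and Gm11175 had 0 to 10.

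The shift to polysomes is the log2 change between pools in METTL7A1 cells minus that in mock cells. It asks whether an mRNA was more or less enriched on polysomes in METTL7A1 than in mock cells. The shift of 0 of 10 members passed either threshold, and 0% of all genes tested did so in edgeR's quasi-likelihood test. Before adjustment, 1911 genes and 0 members had a p below 0.05. Without mock replicate A the same test put 57 genes higher and 71 lower at an adjusted p below 0.05. With no filter beyond 1 count it put 57 higher and 102 lower. DESeq2 called 0 genes by the strict rule and 368 at an adjusted p below 0.05, with 1747 genes and 1 member below 0.05 before adjustment. In limma-voom 0 genes passed either adjusted threshold, with 1849 genes and 0 members below 0.05 before adjustment. The members' log2 shifts ran from -0.48 in Jund (95% interval -1.08 to 0.12) to 0.15 in Myc (-0.30 to 0.61). Their median was -0.27, against -0.01 over all genes, and 9 of 10 lay below 0. Under the GC offsets 3 of 10 lay below 0 and the median was 0.13. The widest interval was that of Fos (-1.14 to 0.46) and the narrowest that of Fosl1 (-0.64 to 0.07), so a moderate shift of either sign could not be told from 0 in most members.

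**Figure D2:**
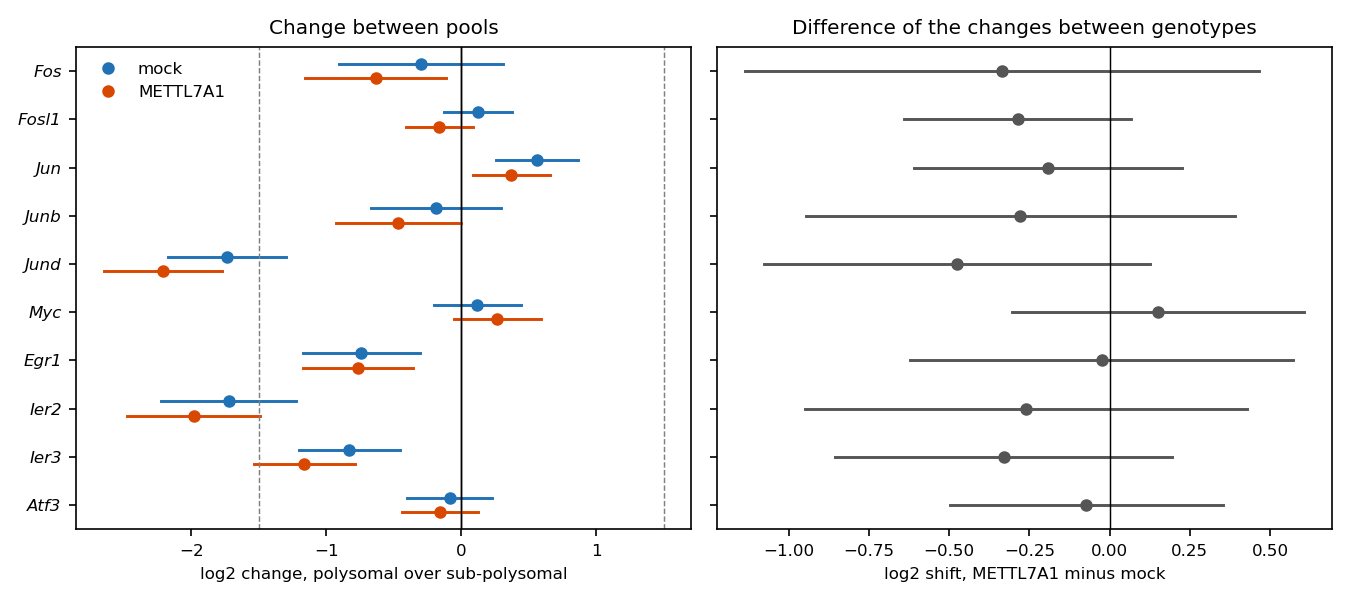
Fitted log2 changes with 95% intervals for the 10 mRNAs, with polysomal over sub-polysomal RNA in mock and METTL7A1 cells on the left (dashed lines at the limit of 1.5) and the difference of these changes between genotypes on the right. Jund (-1.73 and -2.21) and Ier2 (-1.72 and -1.98) lie past the limit on the left, and all 10 intervals of the shift include 0.

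The comparison of METTL7A1 with mock cells within a pool asks which of these mRNAs were more or less abundant in METTL7A1 cells. An effect of METTL7A1 cannot be told apart from other differences between the stably transfected lines. Jun, Egr1, Ier3 and Atf3 were higher in METTL7A1 cells in both pools, by 1.72-fold to 2.36-fold. Ier2 was higher in both pools, and Fos, Junb and Jund were higher in sub-polysomal RNA, but these calls ended under some alternatives. Fosl1 and Myc did not pass the test in either pool. No member passed the strict rule: 0 of 10 in polysomal RNA, against 2.13% of genes, and 0 of 10 in sub-polysomal RNA, against 2.76%, by edgeR's quasi-likelihood test. Before adjustment 6 and 8 members had a p below 0.05, against 3819 and 5166 of 12224 genes tested. DESeq2 and limma-voom also called 0 members by that rule. Before adjustment each had 6 members in polysomal and 9 in sub-polysomal RNA below 0.05. The genes below it were 3526 and 4877 in DESeq2 and 3856 and 5042 in limma-voom. At an adjusted p below 0.05, 5 of 10 were higher in polysomal RNA against 9.69% of genes, and 8 of 10 in sub-polysomal RNA against 16.8%. No member was lower in either pool, against 8.28% and 14.5% of genes. The members were chosen with earlier results of these data known, and the part of that choice in these counts was not tested. Every METTL7A1 library stood above every mock library in 6 of 10 members in polysomal RNA, against 18.9% of genes, and in 8 of 10 in sub-polysomal RNA, against 23.5%. The 10 had a median log2 change of 0.60 in the polysomal pool and 0.90 in the sub-polysomal pool, against -0.01 and 0.00 over all genes. With the GC offsets the medians were 0.52 and 0.49. Under them 5 of 10 were higher in each pool, against 1475 (polysomal) and 1617 (sub-polysomal) of 10842 genes.

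Atf3 showed the largest fold of the 10. It had 20.6, 24.3 and 23.5 CPM in mock polysomal replicates A, B and C and 49.2, 54.4 and 50.2 in METTL7A1 polysomal replicates D, E and F. In sub-polysomal RNA it had 25.4, 25.8 and 22.1 CPM in mock and 62.3, 59.8 and 50.0 in METTL7A1 libraries. The genotypes were well apart, and the lowest METTL7A1 library was above the highest mock library in both pools. The log2 changes were 1.17 (SE 0.137, adjusted p 8.83e-06) in polysomal and 1.24 (SE 0.150, adjusted p 1.18e-05) in sub-polysomal RNA. Over the 13 alternatives they ran from 1.11 to 1.26 and from 1.15 to 1.51, and only the upper end, with Actb scaling, passed the fold limit.

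Ier3, whose libraries are given above, rose by a log2 change of 0.83 in polysomal RNA (SE 0.178, adjusted p 0.00311) and 1.16 in sub-polysomal RNA (SE 0.180, adjusted p 0.000118). Its METTL7A1 sub-polysomal libraries spread widely, from 3115 to 4573 CPM, but all exceeded the mock maximum of 1840. Egr1 rose by 1.00 (SE 0.198, adjusted p 0.00173) and 1.02 (SE 0.203, adjusted p 0.000986), with no overlap in either pool. Jun rose by 0.78 (SE 0.135, adjusted p 0.000501) and 0.97 (SE 0.148, adjusted p 0.000102), again with no overlap. These 3 kept their calls with the GC offsets, with sub-polysomal changes of 0.94 for Ier3, 0.62 for Egr1 and 0.67 for Jun. The changes of Jun, Egr1, Ier3 and Atf3 stayed past an adjusted p of 0.05 in both pools under all 13 alternatives.

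The other rises were less firm. Ier2 rose in sub-polysomal RNA (0.95, SE 0.231, adjusted p 0.0043) and narrowly in polysomal RNA (0.69, SE 0.235, adjusted p 0.0474). The sub-polysomal call ended with the GC offsets (0.36, adjusted p 0.123). The polysomal call ended with RLE factors (adjusted p 0.0518) and without replicate E (0.188), F (0.167) or A (0.0942). Jund rose in sub-polysomal RNA by 0.84 (SE 0.202, adjusted p 0.00402) and had 0.36 (adjusted p 0.244) in polysomal RNA, where the genotypes overlapped. The sub-polysomal change of Jund was 0.02 with the GC offsets (adjusted p 0.945). The 302 genes with at least the GC content of Ier2 had a median sub-polysomal change of 0.64, and 13.2% of them lay below 0.

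Junb had 102, 89.4 and 59.4 CPM in mock and 190, 144 and 91.8 CPM in METTL7A1 sub-polysomal libraries. The highest mock library was above the lowest METTL7A1 library. Its change was 0.78 (SE 0.231, adjusted p 0.0147), but 0.09 with the GC offsets (adjusted p 0.777), and the call also ended without replicate D (0.52), E (0.77) or C (0.57), with adjusted p from 0.0607 to 0.0927. In polysomal RNA Junb had 76.6, 70.2 and 69.9 CPM in mock and 77.9, 111 and 119 CPM in METTL7A1 libraries. These did not overlap, and the adjusted p was 0.123. Fos had 4.51, 9.44 and 5.33 CPM in mock and 11.6, 11.9 and 11.2 CPM in METTL7A1 sub-polysomal libraries. They did not overlap, and its change of 0.82 (SE 0.285, adjusted p 0.0342) lost its call without replicate A, C, D, E or F, with changes of 0.62 to 0.85 and adjusted p from 0.0662 to 0.182. In polysomal RNA the Fos change was 0.49 (adjusted p 0.192).

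Fosl1 and Myc passed in neither pool. Fosl1 lay between 126 and 155 CPM in all 12 libraries, with a change of -0.04 (95% interval -0.29 to 0.20) in polysomal and 0.24 (-0.01 to 0.50) in sub-polysomal RNA. The 3 METTL7A1 sub-polysomal libraries of Fosl1 stood above the 3 mock ones, but the sign of this change depended on scaling, at -0.25 with the GC offsets and 0.50 with Actb scaling (adjusted p 0.0173). Myc had 156, 176 and 193 CPM in mock and 199, 215 and 192 CPM in METTL7A1 polysomal libraries. In sub-polysomal RNA Myc had 181, 178 and 127 CPM in mock and 188, 166 and 149 CPM in METTL7A1 libraries. The genotypes overlapped in both pools, and the changes were 0.21 (-0.11 to 0.52) and 0.06 (-0.27 to 0.38).

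**Figure D3:**
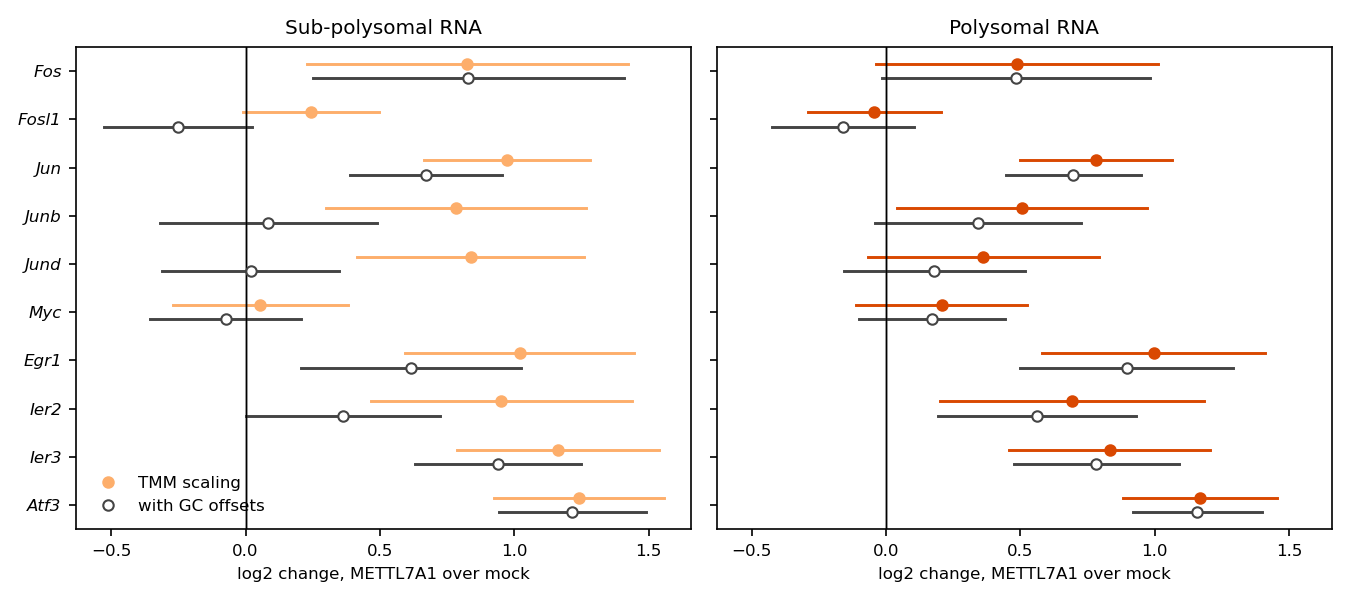
Fitted log2 change of METTL7A1 over mock cells with 95% intervals for the 10 mRNAs in sub-polysomal (left) and polysomal RNA (right), with TMM scaling (filled) and with the GC offsets added (open). Atf3 is near 1.2 in all 4 fits (1.17 and 1.24 with TMM scaling), while the sub-polysomal changes of Junb and Jund move from 0.78 and 0.84 to 0.09 and 0.02.

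Genes around the 10 in the same pathways were described from lists, which were also chosen with earlier results of these data known. Beside them stand the shares of all genes that passed the adjusted p of 0.05 as higher, 9.69% in the polysomal pool and 16.8% in the sub-polysomal pool. For lower they were 8.28% and 14.5%. With the GC offsets, 1475 and 1617 of 10842 genes were higher in these pools, and 1350 and 1470 were lower. Of 28 feedback and effector genes that immediate early signals induce, METTL7A1 cells had 12 higher and 3 lower in the polysomal pool and 16 higher and 5 lower in the sub-polysomal pool. The median changes were 0.41 and 0.61. With the GC offsets 14 were higher in each pool, with 5 and 1 lower. Dusp1, a phosphatase that inactivates MAP kinases, had 17.6 ± 2.72 and 67.4 ± 6.53 CPM (SD, n = 3) in mock and METTL7A1 polysomal RNA, and 19.9 ± 4.03 and 115 ± 5.60 in sub-polysomal RNA. It rose by 1.93 (SE 0.158, adjusted p 1.3e-07) and 2.49 (SE 0.170, adjusted p 1.43e-08), and by 1.87 and 2.23 with the GC offsets. Zfp36, which encodes the AU-rich element binding protein tristetraprolin, was called lower on polysomes in both genotypes, at -2.11 in each. Its rise in sub-polysomal RNA (0.68, adjusted p 0.0403) ended with the GC offsets (0.48, adjusted p 0.0967). Dusp2, a nuclear MAP kinase phosphatase, was lower on polysomes in METTL7A1 cells by a log2 change of -2.50 (SE 0.266, adjusted p 4.14e-07), with 16.4 to 18.7 CPM in sub-polysomal and 2.70 to 3.60 CPM in polysomal libraries. In mock cells Dusp2 was also lower there, at -1.44 (adjusted p 0.00137).

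Of 9 other AP-1 family mRNAs tested, 3 rose and 1 fell in the polysomal pool, while 5 rose and 2 fell in the sub-polysomal pool. Batf3, a small bZIP partner of Jun proteins, had 0.82 to 2.61 CPM in mock and 4.38 to 8.99 CPM in METTL7A1 polysomal libraries, and 4.51 to 8.50 and 34.8 to 43.2 CPM in sub-polysomal libraries. Its rises were 1.95 (SE 0.332, adjusted p 0.000448) and 2.54 (SE 0.276, adjusted p 3.81e-06), the second 1.88 with the GC offsets. Maff, a small Maf protein gene, rose by 1.03 (adjusted p 4.83e-05) and 1.67 (adjusted p 6.08e-07), but by 1.23 in sub-polysomal RNA with the GC offsets. Batf3 was also lower on polysomes, at -1.92 in mock and -2.52 in METTL7A1 cells.

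Other immediate early transcription factors did not share one direction. Of 14 tested, 3 rose and 5 fell in the polysomal pool, while 4 rose and 5 fell in the sub-polysomal pool. The background for lower was 8.28% and 14.5%. Ier5, a relative of Ier2, rose by 1.36 (SE 0.140, adjusted p 1.81e-06) and 2.13 (SE 0.154, adjusted p 2.5e-08). Klf2, a Krüppel-like factor, rose by 0.95 (adjusted p 0.00222) and 1.15 (adjusted p 0.000162), the second 0.53 with the GC offsets (adjusted p 0.0134). Id2, an inhibitor of bHLH factors, fell, with log2 changes of -2.30 (SE 0.187, adjusted p 1.24e-07) and -2.44 (SE 0.194, adjusted p 1.03e-07) and with 88.6 to 177 CPM in the 6 mock and 15.2 to 28.0 CPM in the 6 METTL7A1 libraries. Egr3, a relative of Egr1, fell, with changes of -2.18 (adjusted p 0.003) and -1.74 (adjusted p 0.0294) at no more than 3.57 CPM, opposite to Egr1. Its METTL7A1 libraries read 0.41 to 0.84 CPM in polysomal and 0.24 to 1.24 CPM in sub-polysomal RNA. In these libraries 3 counts correspond to 0.385 to 0.995 CPM, so the fall of Egr3 rests on few counts. Nr4a1, an orphan nuclear receptor gene, and Ier5l were lower on polysomes, Nr4a1 at -1.66 in mock and -1.88 in METTL7A1 cells and Ier5l at -1.34 and -1.76. Ier5l stood at -0.84 and -0.69 with the GC offsets.

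Of 16 mRNAs of AP-1 target genes, 9 rose and 0 fell in the polysomal pool, while 8 rose and 1 fell in the sub-polysomal pool, with medians of 0.73 and 0.48. Under the GC offsets 10 rose in each, against 1475 and 1617 of 10842 genes. The matrix metalloproteinase Mmp9 had 109 to 175 CPM in mock and 524 to 698 CPM in METTL7A1 polysomal libraries, and 102 to 126 and 416 to 494 CPM in sub-polysomal libraries. It rose by 2.09 (SE 0.179, adjusted p 2.12e-07) and 1.96 (SE 0.182, adjusted p 6.96e-07). The stromelysins Mmp10 and Mmp3 rose by 1.67 (SE 0.155, adjusted p 4.93e-07) and 1.58 (SE 0.162, adjusted p 1.82e-06) in polysomal RNA, and by 1.00 (adjusted p 0.000203) and 0.72 (adjusted p 0.00271) in sub-polysomal RNA.

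Of 15 Myc target mRNAs, 2 rose and 3 fell in the polysomal pool, while 3 rose and 4 fell in the sub-polysomal pool, with medians of 0.01 and -0.21. With the GC offsets 3 rose and 3 fell in the polysomal pool, while 1 rose and 5 fell in the sub-polysomal pool. Ncl, the nucleolin gene, was higher on polysomes in METTL7A1 cells by 1.57 (SE 0.181, adjusted p 9.41e-07), and 1.20 with the GC offsets. In mock cells Ncl was also higher there, by 0.64 (adjusted p 0.00617). Among 11 mRNAs of Myc partners and antagonists, 1 rose and 4 fell in the polysomal pool, while 3 rose and 2 fell in the sub-polysomal pool. With the GC offsets 2 rose and 3 fell in the sub-polysomal pool, and the median there moved from 0.35 to -0.05. Mxd3, a Max-binding antagonist of Myc, was lower on polysomes in METTL7A1 cells, at -1.60 (SE 0.225, adjusted p 8.44e-06) and at -1.29 with the GC offsets. In mock cells Mxd3 was also lower there, at -0.73 (adjusted p 0.0196).

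The ERK and JNK kinases and the SRF factors switch the immediate early genes on. Of 16 mRNAs of this pathway, 0 rose and 2 fell in the polysomal pool by edgeR's quasi-likelihood test, while 4 rose and 2 fell in the sub-polysomal pool. Of 15 mRNAs for AU-rich element binding proteins and deadenylases, 0 passed in polysomal RNA and 2 were lower in sub-polysomal RNA by edgeR's quasi-likelihood test, a share near the 14.5% of all genes. For the first list the GC offsets left 1 higher and 2 lower in sub-polysomal RNA. No gene of any list passed for the shift.

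**Figure D4:**
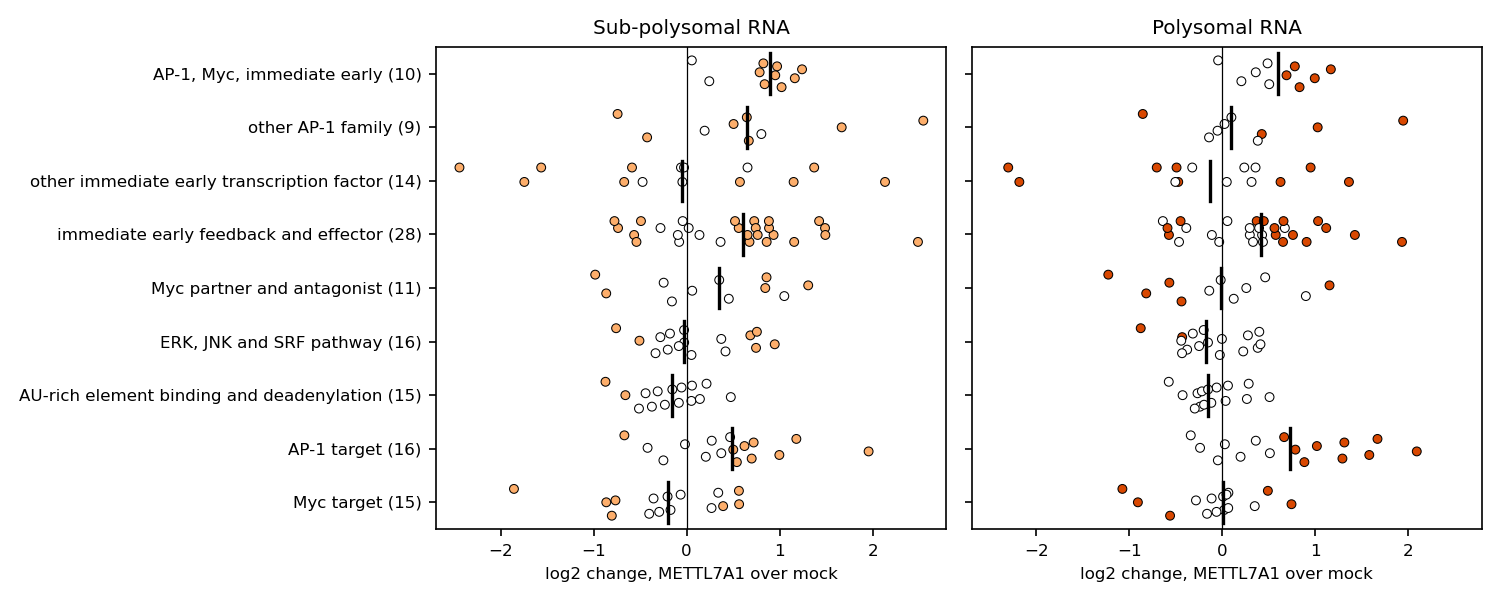
Fitted log2 change of METTL7A1 over mock cells for each gene of the 10 mRNAs and of 8 lists around them (number of genes tested in brackets), in sub-polysomal (left) and polysomal RNA (right), with filled points at an adjusted p below 0.05 and a bar at each list's median. The 10 mRNAs have medians of 0.90 and 0.60, the feedback and effector genes 0.61 and 0.41, and the AP-1 targets 0.48 and 0.73.

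Genes with a pattern like that of Ier3, the most abundant member, were sought over the 12 libraries among 9457 genes with a mean of at least 5 CPM. The closest by Pearson's correlation of log2 CPM were Ifitm3 (0.992), Dhrs13 (0.991), Pofut2 (0.990), Wnt10a (0.989) and Lpcat4 (0.989). The points share 4 groups of 3 libraries, so these values describe group means more than single libraries. Ifitm3 had group means of 385 CPM in mock sub-polysomal, 215 in mock polysomal, 825 in METTL7A1 sub-polysomal and 384 in METTL7A1 polysomal RNA.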

How the data were processed

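Gene counts of 12 RNA-Seq libraries from gradient pools were analysed. The deposited values are raw counts per gene: the authors trimmed reads with BBDuk, aligned them to mm10 with STAR 2.5.3a and counted them with featureCounts on the Ensembl annotation of GRCm38. The paper describes stranded, rRNA-depleted libraries for its total RNA, and its methods give no separate preparation for libraries of the gradient pools. The strand setting and the treatment of multi-mapping reads are not given in the sources used here. Genes reaching 1 CPM in 3 or more libraries entered the fit. After TMM scaling they were fitted in edgeR 4.0.16 (R 4.3.3) with 1 mean per group. Contrasts were tested with the quasi-likelihood test, adjusted by Benjamini-Hochberg over all 12224 genes. The filter and the strict thresholds follow those stated by the study for its RNA-Seq. DESeq2 1.42.0, limma-voom (limma 3.58.1), RLE factors, Actb scaling, no filter, only the groups compared, each replicate left out, a replicate block and GC offsets (lowess span 0.3, 10842 genes) were alternatives. Fits were tested on simulated data. Transcript features came from GENCODE M21. The genes named were the members, Mettl7a1, Actb, listed genes passing the strict rule in any contrast (at most 6 a list) and the 5 genes most like the most abundant member. The members and lists were chosen with earlier results of these data known. A count of 3 corresponded to 0.372 to 1.69 CPM, which covers counting error only.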

Additional observations from a re-analysis of the deposited data

How the results depend on the processing

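Of 670 recomputed log2 changes of members, 614 kept their direction and their side of an adjusted p of 0.05, 22 lost it, 11 gained it and 23 changed sign. Members strictly called between pools were 2 in each genotype, 0 in each with the GC offsets, and 5 (mock) and 6 (METTL7A1) at an adjusted p below 0.05. Leaving out a replicate gave 1 to 2 in mock cells. For METTL7A1 against mock they were 0, and 5 (polysomal) and 8 (sub-polysomal) at that threshold, with 1 in sub-polysomal RNA under Actb scaling, which moved the median of all genes there to 0.26. That scaling turned the genes higher and lower at an adjusted p below 0.05 from 2058 and 1776 to 3283 and 667 in sub-polysomal RNA, from 1185 and 1012 to 1234 and 495 in polysomal RNA, and from 3670 and 3578 to 2137 and 4230 between the METTL7A1 pools. The GC offsets reversed the pool change of Junb (0.20 in mock, 0.46 in METTL7A1) and Fosl1 (0.30 in METTL7A1), the sub-polysomal change of Fosl1 (-0.25) and Myc (-0.073), and the shifts of Fosl1 (0.090), Jun (0.025), Junb (0.26), Jund (0.16), Egr1 (0.28) and Ier2 (0.20). Actb scaling reversed the polysomal change of Fosl1 (0.056) and the shift of Myc (-0.020), and limma-voom the shift of Egr1 (0.037). Leaving out a replicate reversed the pool change of Myc in mock (range -0.12 to 0.24), its sub-polysomal change (-0.10 to 0.13) and the shifts of Junb (-0.63 to 0.15), Egr1 (-0.12 to 0.12), Ier2 (-0.55 to 0.027) and Atf3 (-0.15 to 0.034). None of these reversed values passed an adjusted p of 0.05 except Junb at 0.46. Over all genes, strict calls between pools fell from 923 to 581 in mock and from 1480 to 867 in METTL7A1 cells with the GC offsets, and shift calls rose from 0 to 10 with no filter. At an adjusted p below 0.05 there were 5746, 7248, 2197, 3834 and 0 genes in the 2 pool contrasts, polysomal and sub-polysomal RNA and the shift. The cause was not tested. Deviations of the pools of 1 letter correlated with r from -0.29 to 0.11, and whether both pools of a letter came from 1 gradient was not tested. With the replicate block 2 members were called between pools in each genotype and 0 for the shift. METTL7A1 and mock share no letter, so that comparison could not be blocked. Fos, at 8 to 72 counts per library, is limited by depth.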
